A study of Mus musculus with 40 samples.

Results

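GABAergic neurons of the forebrain were profiled here by translating ribosome affinity purification (TRAP), in which ribosomes that carry a GFP-tagged ribosomal protein are captured with the mRNAs bound to them. The comparison sets 5 TRAP libraries of VGAT-TRAP mice against 5 libraries of whole cell homogenate (WCH) of the same mice, which are 10 of the 40 libraries of the series, chosen by the line and fraction in their labels. It asks which ribosome-bound transcripts of the tagged neurons stand above or below the total RNA of the tissue. VGAT-TRAP mice came from a cross of Cre-dependent EGFP-Rpl10a reporter mice with mice that express Cre from the Slc32a1 locus (Slc32a1tm2(cre)Lowl), so that any cell with present or past Slc32a1 expression can carry the tag. All mice were 21 d old (p21), and both groups carried both alleles. Each replicate was a pool of 2 to 3 forebrains of both sexes, and the TRAP and WCH of a pool were aliquots of one homogenate. In the labels the tissue is cortex, and in the protocol a forebrain dissected rapidly. The RBP4-TRAP line, in which Cre marks layer 5 pyramidal neurons, was prepared in the same way at the same age and gave another 5 TRAP and 5 WCH libraries, used below for comparison.

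GABAergic neurons make GABA from glutamate with the decarboxylases Gad1 and Gad2, load it into synaptic vesicles with the transporter Slc32a1 (VGAT), and owe their identity in the ventral forebrain to homeodomain factors such as Dlx1. In the cortex they are local interneurons, commonly divided by the markers parvalbumin, somatostatin and Vip. In the striatum most neurons are GABAergic projection neurons, and further GABAergic neurons lie in the pallidum, the septum and the reticular thalamus. Many of these cells release neuropeptides beside GABA.

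Libraries of the comparison held 15707596 to 20629343 counts. Mitochondrially encoded genes took 2.63% to 6.67% of the counts in WCH and 0.123% to 0.473% in TRAP. These and annotated rRNA and tRNA genes were left out, and values are counts scaled to a common total of the rest (cpm), so that 1 count was worth 0.0486 to 0.0655 cpm. Spearman correlations were 0.982 to 0.994 within WCH, 0.976 to 0.991 within TRAP and at most 0.962 between them, so no library was identical to another. The TRAP library of pool 3 stood apart by its astrocyte, oligodendrocyte, choroid plexus and glutamatergic neuron transcripts, and that of pool 5 did so to a lesser degree. Values without pool 3 are given with the results concerned. The tag itself, EGFP, had no value in the counts used here, and reads of endogenous Rpl10a (3.17 ± 1.01 cpm in WCH and 2.01 ± 0.77 cpm in TRAP, SD, n = 5) are no check of it.

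The 4 genes that mark the captured cells were higher in TRAP of every pool, and for each of them all TRAP libraries lay above all WCH libraries. Slc32a1 (chr2:158610767-158615748 in the coordinates of the files) measured 8.81, 10.6, 10.2, 10.3 and 11.6 cpm in WCH of pools 1 to 5. In TRAP it measured 48.4, 49.7, 56.8, 77.2 and 59.8 cpm, a log2 change of 2.50 ± 0.20 (SE, adjusted p = 3.13e-09 in edgeR's quasi-likelihood test, as for all adjusted p below). Gad1 (chr2:70553072-70602014) ran from 480 to 723 cpm in WCH and from 2016 to 3470 cpm in TRAP. Pool 3 gave the lowest Gad1 level in both fractions. Dlx1 (chr2:71528113-71533981) measured 18.7, 16.7, 15.2, 15.6 and 15.6 cpm in WCH against 111, 97.4, 81.9, 115 and 81.1 cpm in TRAP. Sst (chr16:23889581-23890844), the precursor of somatostatin, had the steadiest WCH level of the set, between 211 and 228 cpm. In TRAP it reached 2685, 2401, 2739, 3648 and 2651 cpm, 12.8 times the WCH mean (log2 3.67 ± 0.35, adjusted p = 2.87e-08). By these markers the TRAP libraries held the RNA of GABAergic neurons that their labels name. A lower level in these libraries can come from fewer cells of a type or from less RNA per cell, and a TRAP library differs from WCH both in its cells and in holding ribosome-bound rather than total RNA. Neither pair can be told apart here.

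**Figure D1:**
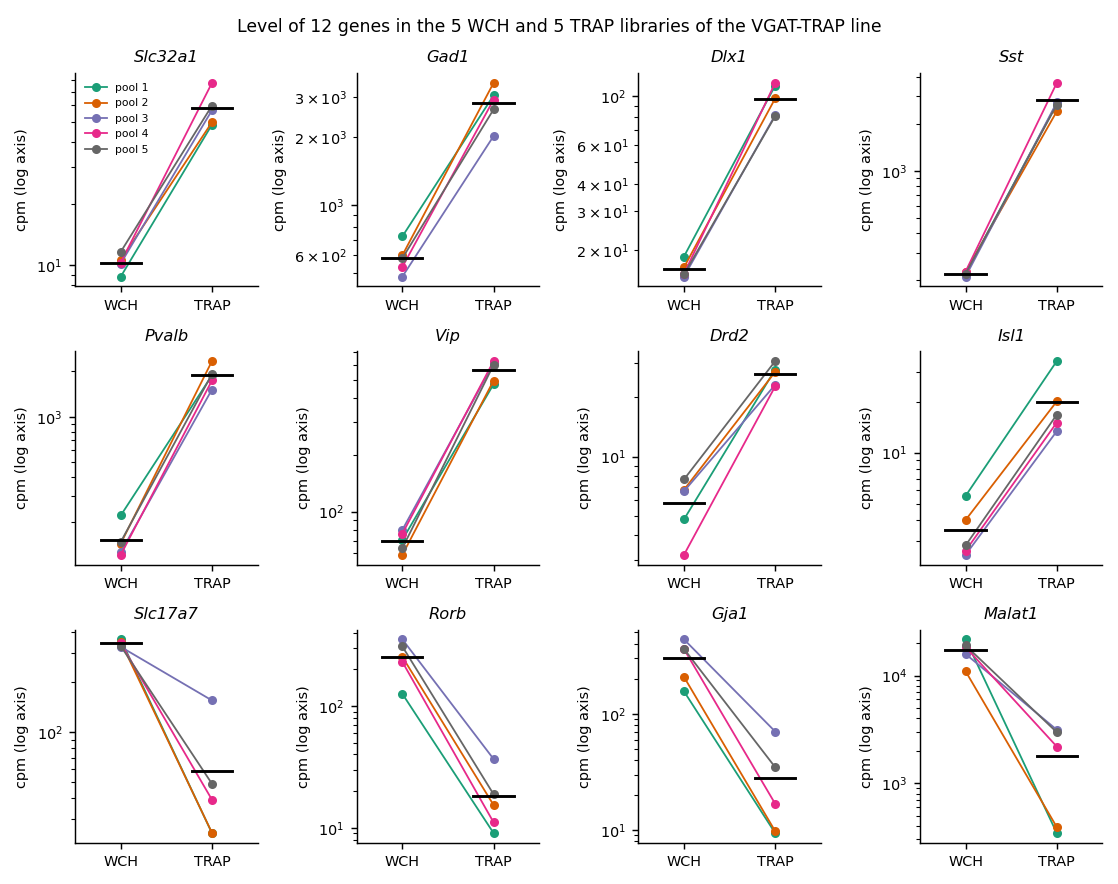
Level in cpm (log axis) of 12 genes in the WCH and TRAP libraries of the VGAT-TRAP line, with 1 point per library, lines joining the libraries of a pool and black bars at the group means. The 8 genes of GABAergic and cholinergic neurons lie higher in TRAP in all 5 pools, and Slc17a7, Rorb, Gja1 and Malat1 lie lower in all 5, with pool 3 the highest TRAP library for each of the latter 4.

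Neuropeptide precursor genes held 6 of the 15 largest increases, so the stretches of their promoters that carry known types of regulatory sequence are shown first. RefSeq promoter windows (GRCm38.p6, 250 bases before to 50 after the start of the gene) were found for 21 of the 26 precursor genes tested. The 250 bases before the start were searched on both strands for TGACGTCA, the cyclic AMP response element. They were also searched for TAATTA, a core that many homeodomain proteins bind. TGACGTCA stood in the windows of 3 precursor genes, all called higher in TRAP, which are printed 5′ to 3′ on the strand of the gene with the motif in capitals.
Sst (chr16:23890874-23890903, minus strand): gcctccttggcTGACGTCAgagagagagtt
Scg2 (chr1:79440076-79440105, minus strand): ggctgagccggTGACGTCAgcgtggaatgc
Cartpt (chr13:99900777-99900806, minus strand): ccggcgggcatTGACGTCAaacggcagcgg

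Of the 26 precursor genes tested, 21 were called higher, so such a call does not set the genes with either motif apart. TAATTA stood in the windows of 4 precursor genes, also all called higher in TRAP.
Cort (chr4:149126831-149126860, minus strand): gtcccgagtcttTAATTAaggggctaaatc
Tac1 (chr6:7554949-7554978, plus strand): cgagggggcggcTAATTAaatattgagcag
Pomc (chr12:3954705-3954734, plus strand): caacaccattctTAATTAagttcttcctaa
Rln1 (chr19:29334866-29334895, minus strand): tgccttattctgTAATTAagaaaaaacttc

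TGACGTCA began 48 bases before the start of Sst, 68 before Scg2 and 112 before Cartpt. GENCODE M21 places exons over all 30 bases printed for Sst, Scg2, Cartpt and Tac1, and over 0 of those for Cort, Pomc and Rln1, so that the first 4 lie before the RefSeq start but within an annotated transcript. TGACGTCA was found in 1.55% of all 32851 promoter windows. Among genes with a window, it was found for 2.86% of genes tested, 3.84% of genes called higher and 2.33% of genes called lower. TAATTA was found in 4.84% of all windows and for 3.31% of genes tested, with 3.02% among genes called higher and 3.83% among genes called lower. The shares of windows and the shares of genes differ in unit and do not compare directly. No test was made of these shares, and a match is a run of letters, not a known binding site.

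Of 16990 genes tested, 3561 were higher in TRAP (21.0%) and 7106 were lower (41.8%), where a call needed an adjusted p up to 0.05. All 5 TRAP libraries lay above all 5 WCH libraries for 2873 genes (16.9%) and below them for 5895 genes (34.7%). The called changes went the same way in every pool for 3417 of the genes called higher and 6791 of those called lower. The median log2 change over all genes was -0.31 with the library sizes used here. With TMM factors, which centre the middle of the distribution, it was -0.06 and the calls were 4987 higher and 5530 lower. Changes are therefore best read against a centre of -0.31. The numbers of calls below are set beside 21.0% and 41.8%.

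The largest increases, among called genes with at least 5 cpm in TRAP and no overlap between groups, were those of Abhd11os, Sst, Pvalb, Cort, Npy, Cox6a2, Crh, Ido1, Cacng1, Crabp1, Tac2, Dlx5, Npas1, Pnoc and Rpp25, from log2 3.94 to 3.02. Sst, Cort, Npy, Crh, Tac2 and Pnoc encode neuropeptide precursors, and Dlx5 and Npas1 are transcription factors of the GABAergic lineage. Cox6a2, a subunit of cytochrome c oxidase also known from heart and skeletal muscle, measured 13.0 to 18.4 cpm in WCH and 146, 130, 141, 210 and 149 cpm in TRAP. Crabp1, which binds retinoic acid in the cytoplasm, ran from 2.09 to 5.18 cpm in WCH and from 15.2 to 35.1 cpm in TRAP. Abhd11os, a noncoding RNA, rose from 1.07 ± 0.37 to 16.5 ± 1.65 cpm (SD, n = 5). The library kit does not mark strand, and per the paper only unambiguous reads were counted. Reads over exons shared with a gene on the opposite strand would thus be left out. Reads from that strand outside annotated exons cannot be told apart from its own.

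The largest decreases were those of Gdap10, Slco1a4, Srrm4os, Cd38, Xist, Ccpg1, Rorb, Mir124a-1hg, Alas2, Serpinb8, Hbb-bt, Enpp6, Slc17a6, Efna1 and Itga4, from log2 -4.81 to -3.46. They comprised noncoding RNAs such as Xist and Mir124a-1hg, the red cell genes Alas2 and Hbb-bt, Enpp6 of newly formed oligodendrocytes, and Rorb and Slc17a6 of glutamatergic neurons. Slco1a4, an organic anion transporter of brain endothelium, fell from 6.95 ± 1.74 to 0.354 ± 0.285 cpm, and its lowest TRAP library held a single count (0.0638 cpm).

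The transcripts at the highest levels in TRAP were, by contrast, mostly not particular to these cells. They included Gm42418, Snap25, Gnb1, Actb, Mdh1, Calm2, Dpysl2, Lars2 and Selenow. Of these, Gm42418, Mdh1 and Lars2 were called higher in TRAP and Dpysl2 lower. Dpysl2 was not called without pools 2, 3 or 4 (-0.53 to -0.50), with TMM factors (-0.34) or with DESeq2 (-0.38). Gnb1 was called lower without pool 1 (-0.77). Snap25, a SNARE protein of all neurons, measured 7909 to 10944 cpm in WCH and 8283 to 9326 cpm in TRAP, and was not called (adjusted p = 0.685). Gm42418 overlaps an rRNA repeat, and its level varied from 4994 to 16630 cpm between TRAP libraries.

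Among 8 genes of GABA synthesis and transport, 4 were higher in TRAP, 2 were lower and 2 were not called. Gad2, the isoform of the decarboxylase found mainly at terminals, measured 438, 406, 279, 284 and 313 cpm in WCH and 1454, 1576, 861, 1109 and 1039 cpm in TRAP (log2 1.81 ± 0.26, adjusted p = 3.79e-06). Per kb of exon the order was Gad1 before Gad2 before Slc32a1 in both fractions, with 369, 206 and 20.9 cpm per kb in TRAP. The paper reports a strong 3′ bias of the reads, so counts need not scale with exonic length and this order is uncertain. The GABA transporters of astrocytes and of the meninges fell, Slc6a11 from 50.5 to 12.8 cpm and Slc6a13 from 5.97 to 0.572 cpm. The enzymes that degrade GABA, Abat and Aldh5a1, had log2 changes of 0.42 and 0.40 that did not pass the test. Abat overlapped between groups, with its lowest TRAP value, 266 cpm, in pool 3, and without that pool it was called at 0.55. Both were called with the replicate number as a block in the 10 libraries alone (Abat 0.41, adjusted p = 0.0157, and Aldh5a1 0.41, adjusted p = 0.000744, by edgeR's quasi-likelihood test). With TMM factors both were called as well (0.68 and 0.65).

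Transcription factors of the GABAergic lineage were higher for 17 of 19 genes, with a median log2 change of 2.29 (2.15 without pool 3). Dlx5, which acts with Dlx6 downstream of Dlx1 and Dlx2, measured 4.31, 5.36, 3.01, 3.54 and 4.35 cpm in WCH and 45.9, 34.0, 33.1, 36.8 and 29.1 cpm in TRAP. Lhx6, the factor of neurons born in the medial ganglionic eminence, rose from 21.2 ± 4.32 to 121 ± 25.4 cpm (log2 2.52 ± 0.19, adjusted p = 1.83e-09). Sp9 rose by a log2 of 2.55, Dlx2 by 2.29 and Sp8 by 1.58. Nkx2-1, which most cortical interneurons lose as they leave the eminence, was low, between 0.0655 and 0.739 cpm in WCH and between 1.59 and 3.57 cpm in TRAP. Sox6 (log2 0.41) and Satb1 (0.37) rose least, and the call of Sox6 was lost without pools 1, 2, 4 or 5 (0.30 to 0.49). Among the 2 genes called lower was Prox1, at 39.4 cpm in WCH and 25.4 cpm in TRAP.

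Markers of cortical interneuron subclasses were higher for 26 of 30 genes, lower for 3 and not called for 1, with a median log2 change of 1.89 (1.90 without pool 3). The calcium buffer Pvalb of fast-spiking basket and chandelier cells measured 222, 145, 127, 122 and 148 cpm in WCH and 1882, 2340, 1517, 1742 and 1919 cpm in TRAP (log2 3.62 ± 0.32). Vip, of interneurons that mainly inhibit other interneurons, measured 70.7, 58.8, 79.9, 76.2 and 63.8 cpm in WCH. In TRAP it measured 474, 496, 613, 629 and 601 cpm (log2 3.01 ± 0.30, adjusted p = 4.5e-08). The defining genes of all 3 main classes were therefore higher in TRAP. Which region their RNA came from was not tested, and Pvalb is also in the list of pallidal, septal and reticular markers. Among markers of smaller groups, Htr3a and Th each rose by a log2 of 2.80, Krt73 by 2.78, Chodl by 2.02 and Ndnf by 1.46. Calb2 rose by 2.07, Reln by 1.22 and Nos1 by 0.86, and Calb1 rose from 272 to 543 cpm. Erbb4, the neuregulin receptor of interneurons, measured 40.3 to 53.5 cpm in WCH and 48.6 to 66.0 cpm in TRAP and did not pass the test (adjusted p = 0.18). It did with the replicate number as a block in the 10 libraries (log2 0.24, adjusted p = 0.016) and with TMM factors (0.49).

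The 3 markers called lower were Id2 (log2 -0.70), Lamp5 (-0.55) and Cck (-0.41), which glutamatergic neurons also express. Id2 measured 1042, 824, 812, 894 and 737 cpm in WCH and 469, 488, 682, 563 and 443 cpm in TRAP, without overlap. Lamp5 ran from 317 to 459 cpm in WCH and from 213 to 346 cpm in TRAP. Cck ran from 227 to 278 cpm and from 132 to 267 cpm. With TMM factors only Id2 of the 30 markers was called lower. The same held without pool 1, where Lamp5 stood at -0.48 and Cck at -0.27, and Cck was not called without pools 2, 4 or 5 either (-0.43 to -0.39).

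The summed level of the neuropeptide precursors stood at 549%, 586%, 644%, 737% and 663% of the WCH library of the same pool in pools 1 to 5. Of 26 tested, 21 were higher, 4 were lower and 1, Gal (log2 0.99), was not called, although it was with the replicate number as a block (0.71). Npy, of the neuropeptide Y neurons, measured 280, 298, 301, 298 and 295 cpm in WCH and 2854, 2885, 3347, 3678 and 3391 cpm in TRAP. Cort, the precursor of cortistatin, a peptide closely related to somatostatin, rose from 5.43 ± 0.39 to 66.8 ± 15.2 cpm. Crh rose by a log2 of 3.24, Tac2 by 3.16, Pnoc by 3.06 and Tac1 by 2.78. The precursors whose promoter stretches are printed above also included Cartpt (log2 2.04), Rln1 (2.03), Pomc (1.27) and the granin Scg2 (1.07). Rln1 and Pomc were low, with 2.98 and 2.54 cpm in TRAP. Nxph1, a secreted ligand of alpha-neurexins, rose from 54.4 ± 5.03 to 284 ± 33.8 cpm.

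The precursors called lower were Adcyap1 (log2 -2.47), Nmb (-1.92), Grp (-1.63) and Cck. Adcyap1, the precursor of PACAP, measured 21.8, 18.2, 16.6, 20.2 and 15.6 cpm in WCH and 1.72, 2.44, 7.01, 2.33 and 3.26 cpm in TRAP, the highest in pool 3. Proteins that process and store peptides did not move together, with 5 of 16 higher, 6 lower and a median of 0.01. Pcsk1n, an inhibitor of the convertase Pcsk1, rose by 1.92, Chga by 0.95 and Scg5 by 0.73, while Pcsk1 fell from 15.3 to 5.79 cpm and Pcsk2 by 0.97 on the log2 scale.

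Markers of striatal projection neurons were higher for 28 of 32 genes tested, lower for 2 and not called for 2, with a median log2 change of 1.65 (1.57 without pool 3). Penk, the enkephalin precursor of indirect pathway neurons, measured 342, 345, 306, 232 and 405 cpm in WCH and 2349, 1992, 1820, 1733 and 2924 cpm in TRAP. Pdyn, the dynorphin precursor of direct pathway neurons, measured 30.3, 32.8, 34.4, 31.2 and 32.6 cpm and then 117, 125, 131, 136 and 142 cpm. Both precursors were thus higher in TRAP of every pool, and which cells their RNA came from was not tested. Ppp1r1b (DARPP-32), which integrates dopamine signals in these cells, rose by a log2 of 2.81 ± 0.26. Ido1 rose by 3.23, Syndig1l by 2.58, Rasgrp2 by 2.42, Six3 by 2.35, Rxrg by 2.33 and Gpr6 by 2.31. The dopamine receptors differed in size of change, with log2 2.17 ± 0.35 for Drd2 and 1.07 ± 0.23 for Drd1. Per kb of exon their TRAP levels were 16.9 and 25.8 cpm, which the 3′ bias of the reads leaves uncertain as a ranking. Foxp1 (log2 -0.38) and Eya1 (-0.66) were called lower, which was not so with TMM factors. Gpr52 had no row under this symbol and Drd3 was under the minimum level. The summed level of the list was 280% to 336% of WCH in the 5 pools, against 328% to 436% for the cortical interneuron list.

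Of 7 cholinergic markers tested, 4 were higher and 3 were not called, among them Ngfr and Slc5a7. Isl1, a LIM homeodomain factor shared by cholinergic and striatonigral neurons, measured 5.55, 4.00, 2.49, 2.63 and 2.83 cpm in WCH and 34.7, 20.1, 13.4, 15.1 and 16.8 cpm in TRAP. Pool 1 was the highest in both fractions. Slc18a3, the vesicular acetylcholine transporter, rose from 1.94 to 8.13 cpm. Chat, the synthetic enzyme, measured 3.72 and 7.50 cpm with overlap between groups. The Slc18a3 gene lies within the span of Chat in the file coordinates. Slc5a7, the choline transporter, did not differ beyond its error (log2 0.29 ± 0.28).

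Among 12 genes that mark pallidal, septal or reticular thalamic GABAergic neurons, 7 were higher, 1 was lower and 4 were not called. The list contains Pvalb, which took most of its sum in TRAP. Of the others, Lhx1 rose by a log2 of 1.75 and Spp1 by 0.86. Gbx1 lay between 0 and 0.370 cpm in WCH and between 0.370 and 3.32 cpm in TRAP. Zic1, Zic4, Trpc4 and Tacr3 were not called, although Trpc4 was called higher without pool 3 (0.37), and so it was in the 10 libraries blocked by replicate number (0.30). Etv1, which layer 5 pyramidal neurons also express, was called lower, from 88.2 ± 13.2 to 29.1 ± 4.53 cpm. Of 14 thalamic and hypothalamic genes tested, 4 were higher, 3 were lower and 7 were not called.

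Markers of glutamatergic cortical neurons were lower for 25 of 29 genes, higher for 1 and not called for 3, with a median log2 change of -2.09 (-2.75 without pool 3). Slc17a7, the vesicular glutamate transporter of cortical pyramidal cells, measured 362, 350, 326, 342 and 330 cpm in WCH and 24.6, 24.7, 155, 39.1 and 48.8 cpm in TRAP. Pool 3 was thus more than 3 times as high as any other TRAP library. Rorb, a factor of layer 4 neurons, measured 126, 254, 353, 231 and 309 cpm in WCH and 9.05, 15.4, 36.7, 11.1 and 18.9 cpm in TRAP. Neurod6 fell by 3.12, Neurod1 by 3.08, Tbr1 by 2.85 and the subcortical transporter Slc17a6 by 3.52 on the log2 scale. Camkv, a kinase-like protein of dendritic spines, was the gene called higher (log2 0.33, overlapping), and it was not called without pool 5 (0.29). Slc17a8, the transporter that some Cck interneurons and striatal cholinergic neurons also use, was not called (log2 0.30 ± 0.25). Chn1 and Slc30a3 each fell by only 0.40, and neither was called without pool 1 (-0.34 and -0.30), pool 2 (-0.45 and -0.32) or pool 5 (-0.42 and -0.40), nor Chn1 without pool 4 (-0.35).

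Glial and vascular markers were lower with few exceptions. All 20 astrocyte markers and all 20 oligodendrocyte markers tested were called lower, with medians of -2.41 and -2.73 (-3.05 and -3.26 without pool 3). Gja1, the gap junction protein of astrocytes, measured 156, 208, 437, 360 and 362 cpm in WCH and 9.44, 9.81, 70.4, 16.9 and 34.8 cpm in TRAP. Pools 3 and 5 gave its highest TRAP levels. The smallest change among astrocyte markers was that of Slc4a4 (log2 -0.78), a bicarbonate transporter. Neither list had a member at 0 in any TRAP library.

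All 16 microglial markers were lower (median -1.70), with Cx3cr1, the fractalkine receptor, at 53.4 to 89.8 cpm in WCH and 3.33 to 15.9 cpm in TRAP. All 5 blood markers were lower, including the globin gene Hbb-bs, which fell from 173 ± 34.3 to 17.7 ± 6.49 cpm. Endothelial markers were lower for 13 of 15 genes, and 4 of them (Kdr, Cdh5, Tek and Vwf) were at 0 in at least 1 TRAP library. Cldn5 and Esam were not called, but Esam was called lower with the replicate number as a block in the 10 libraries (-0.59). Mural, fibroblast and choroid plexus markers were lower for 14 of 17. The choroid plexus gene Ttr measured 15.3, 20.6, 597, 37.4 and 59.7 cpm in TRAP, so that pool 3 was within the WCH range of 386 to 831 cpm, and Ttr was not called without pool 4 (-1.60) or pool 5 (-1.85). Tagln, an actin-binding protein of smooth muscle, was higher, from 3.33 ± 0.48 to 11.9 ± 2.12 cpm. Of 6 ependymal markers 5 were lower, and of 7 markers of oligodendrocyte precursors 5 were lower, 1 was not called and Cacng4, an auxiliary subunit of AMPA receptors, was higher (44.4 and 62.9 cpm).

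Set against the WCH library of the same pool, the summed oligodendrocyte markers stood at 6.75%, 6.87%, 31.1%, 8.40% and 20.4% in pools 1 to 5. Astrocyte markers stood at 11.4%, 11.5%, 28.8%, 10.4% and 19.3%, and glutamatergic markers at 43.9%, 46.0%, 57.4%, 41.6% and 49.8%. In pool 3 the mural and choroid list reached 64.8%, against 6.61% to 20.3% in the others. The GABAergic lists spread less than the oligodendrocyte, astrocyte and mural lists, but not less than the glutamatergic list throughout. The pallidal, septal and reticular list, for example, ran from 504% to 838%. In pool 3 the interneuron list stood at 393%, within the range of the other pools. Pool 3 was lowest for striatal markers (280%) and for GABA synthesis and transport (269%). The part of the glial, choroid and glutamatergic transcripts in these lower values was not tested. Without pool 3, the calls were 26 higher and 3 lower for interneuron markers, 28 and 2 for striatal markers and 1 and 25 for glutamatergic markers, each the number found with it.

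**Figure D2:**
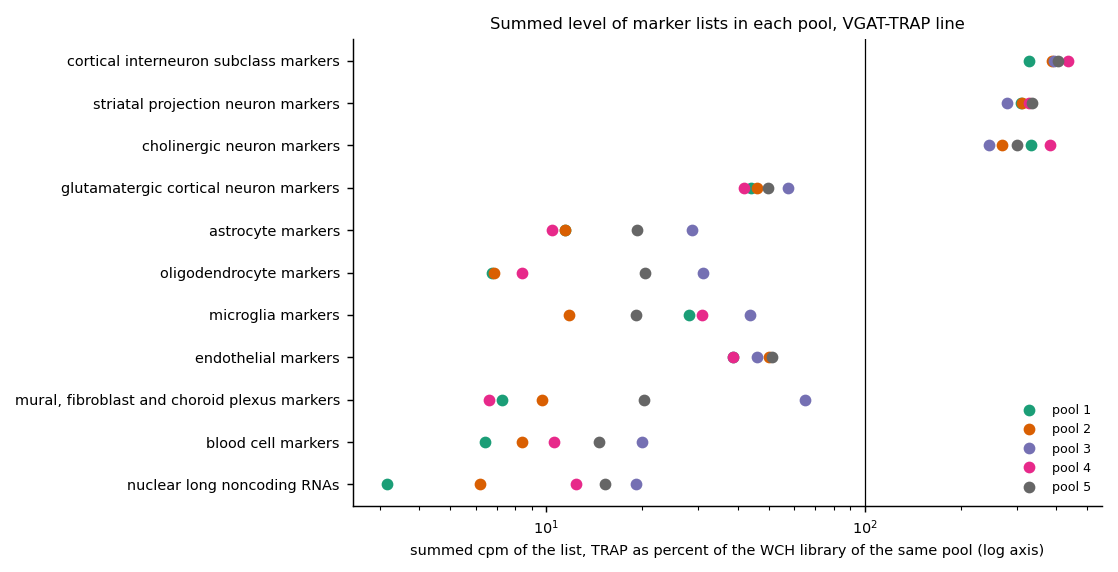
Summed cpm of each marker list in TRAP as a percentage of the WCH library of the same pool (log axis), with 1 point per pool of the VGAT-TRAP line and a line at 100%. The interneuron, striatal and cholinergic lists lie right of the line in all 5 pools, and pool 3 lies furthest right for oligodendrocyte (31.1%), astrocyte (28.8%) and mural, fibroblast and choroid plexus markers (64.8%).

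Genes of signalling and excitability did not follow one direction. Of 45 neuropeptide and monoamine receptors tested, 11 were higher, 22 were lower and 12 were not called. The serotonin-gated channel Htr3a, which defines one interneuron lineage, rose from 4.65 ± 0.71 to 32.3 ± 4.67 cpm. Htr1d rose by a log2 of 1.91, the substance P receptor Tacr1 by 0.98, the delta opioid receptor Oprd1 by 0.80 and the cannabinoid receptor Cnr1 by 0.54. Oprd1 was not called without pool 4 (0.59), nor Cnr1 without pools 1, 2, 4 or 5 (0.49 to 0.57). Among the receptors called lower, a share (22 of 45) that stands beside 41.8% of all genes, were Vipr1 at log2 -1.96, Sstr3 at -1.76, Sstr2 at -1.15, Cckbr at -1.29 and Npy1r at -0.92.

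Of 14 GABA-A receptor subunits, 8 were lower and only Gabrd was higher. Gabrd, the delta subunit of extrasynaptic receptors, measured 38.7, 33.8, 38.0, 35.0 and 45.7 cpm in WCH and 51.1, 57.3, 65.9, 75.4 and 77.2 cpm in TRAP (log2 0.77 ± 0.18, adjusted p = 0.000863). Gabrb1 (log2 -1.74), Gabra2 (-1.39) and Gabra5 (-1.18) were lower.

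Ionotropic glutamate receptor subunits were higher for 3 of 17 and lower for 10. The 3 were the kainate subunit Grik1 (13.9 and 35.7 cpm), and the NMDA subunits Grin2d (5.21 and 10.4 cpm) and Grin3a (log2 0.52). Grin2b (-1.89), Grin2a (-1.62) and Gria2 (-1.41) were lower. Gria2, the subunit that keeps AMPA receptors impermeable to calcium, fell from 1149 ± 154 to 433 ± 64.7 cpm. Gria1 measured 364 ± 34.5 and 395 ± 30.0 cpm and was not called, although it was called higher with TMM factors (0.37). Among 9 metabotropic glutamate and GABA-B receptors 6 were lower, led by Grm2 at log2 -2.27. Gabbr1 was called higher (log2 0.32 ± 0.11), which was lost without pool 2 (0.30) and without pool 4 (0.28).

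Kv3 potassium channels and other genes of fast spiking were higher for 10 of 15 genes. Kcnc1 (Kv3.1), which speeds repolarization, measured 86.7, 67.3, 67.4, 67.6 and 73.3 cpm in WCH and 188, 183, 190, 216 and 178 cpm in TRAP (2.63 times the WCH mean, adjusted p = 6.54e-09). Kcnc2 (Kv3.2) rose from 119 ± 11.5 to 259 ± 41.9 cpm, while Kcnc4 fell from 50.2 to 24.7 cpm. The accessory subunits Kcnab3 and Kcnab1 rose by a log2 of 1.34 and 1.22. Of 9 sodium channel subunits, 2 were higher, among them Scn4b (1.48), and 4 were lower, shares near the 21.0% and 41.8% of all genes. Scn2a (-1.52), Scn3a (-1.46) and Scn8a (-1.16) were among those that were lower. All 6 chloride transporters were lower, led by the importer Slc12a2 (NKCC1), which fell from 101 ± 18.6 to 15.3 ± 5.93 cpm, while the exporter Slc12a5 (KCC2) fell by 0.43, a call lost without pools 1, 2, 4 or 5 (-0.45 to -0.37). With TMM factors 3 of the 6 were called lower.

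**Figure D3:**
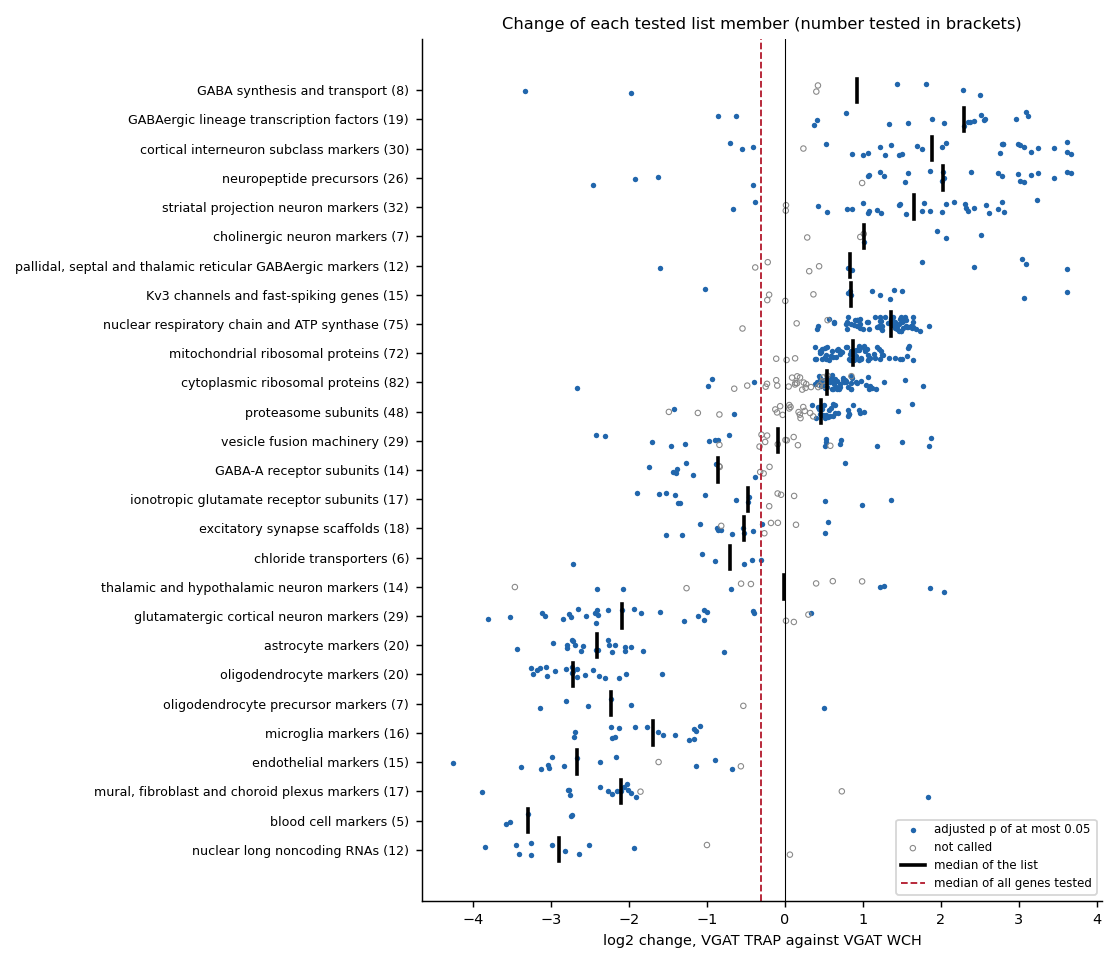
Log2 change of each tested member of 27 gene lists, VGAT TRAP against VGAT WCH, with filled points for an adjusted p of at most 0.05, open points for the rest, black bars at list medians and a dashed line at the median of all genes (-0.31). The lists of GABAergic neurons, mitochondrial and ribosomal proteins lie mostly right of the dashed line, and those of glutamatergic neurons, glia, vessels, blood and nuclear noncoding RNAs mostly left of it.

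At the synapse, 9 of 29 genes of vesicle fusion were higher, 9 were lower and 11 were not called. Vamp1, the synaptobrevin of fast-spiking terminals, measured 88.5, 99.6, 73.2, 74.0 and 64.8 cpm in WCH and 306, 330, 251, 301 and 249 cpm in TRAP. Complexin 1 (Cplx1) rose from 425 ± 95.3 to 1555 ± 185 cpm, and the calcium sensor Syt2 rose from 25.8 ± 3.73 to 73.04 ± 9.76 cpm. Stx1a, a syntaxin of the release machinery, fell from 347 ± 45.9 to 106 ± 44.2 cpm, Sv2b by a log2 of 2.42 and Unc13b by 2.31. Snap25, Syt1 and Syn1 were not called, although Syt1 was called lower without pool 3 (-0.34), and both Syt1 (-0.33) and Syn1 (-0.29) were with the replicate number as a block in the 10 libraries. The pairs Vamp1 and Vamp2 (0.71), and Sv2a (0.52) and Sv2b, changed unequally. The call of Sv2a was lost without pool 1 (0.48) and without pool 4 (0.45).

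Scaffolds of excitatory synapses were lower for 11 of 18 genes and higher for 2, Dlgap3 (0.55) and Shank3 (0.52). The list was led by Dlg1 (-1.52) and Camk2a (-1.33). Camk2a measured 1193, 1020, 1078, 974 and 1055 cpm in WCH and 234, 199, 760, 231 and 698 cpm in TRAP, so that pools 3 and 5 again lay above the others. Shank3 likewise measured 23.02 and 24.98 cpm in TRAP of pools 3 and 5 and 12.2 to 14.4 cpm in the others, which overlapped WCH, and it was not called without pools 2, 3 or 5 (0.58, 0.36 and 0.29) or with the replicate number as a block in the 10 libraries (0.47). With TMM factors 6 of the 18 were called lower. Of 15 genes of inhibitory synapses, 5 were higher, among them Insyn1 (0.95, not called without pool 1 at 0.79) and Cntnap4 (0.81), and 3 were lower. The gephyrin gene Gphn measured 118 to 134 cpm in WCH and 142 to 163 cpm in TRAP, without overlap, but did not pass the test (log2 0.26 ± 0.13, adjusted p = 0.095). It passed with the replicate number as a block (0.26), without pool 3 (0.26) and with TMM factors (0.51). Of 12 immediate early genes, 5 were lower, a share near the 41.8% of all genes, and none was higher. Btg2 fell from 55.0 to 15.4 cpm, and Fos varied from 20.2 to 68.3 cpm between WCH pools and was called only with the replicate number as a block (-0.64).

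Genes of energy metabolism were higher in TRAP almost throughout. Of 75 nuclear genes of the respiratory chain and ATP synthase, 72 were higher, 0 were lower and 3 (Sdha, Cox7a1 and Atp5g2) were not called, with a median of 1.36. Cox7a1 was called higher with the replicate number as a block in the 10 libraries (0.57). In 70 of them all TRAP libraries lay above all WCH libraries. Atp5g3, a subunit of the proton-conducting ring, measured 503, 440, 367, 459 and 330 cpm in WCH and 1562, 1557, 1363, 1863 and 1212 cpm in TRAP. The sum of the list was 194% to 267% of WCH in the 5 pools. Of 72 mitochondrial ribosomal proteins 69 were higher and 0 were lower, with a median of 0.87, led by Mrpl52 (1.64), Mrps6 (1.59) and Mrps12 (1.58).

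Cytoplasmic ribosomal proteins were higher for 53 of 82 genes, lower for 4 and not called for 25 (median 0.54). Many of these genes have near-identical pseudogenes, and their values are uncertain. Rpl13, for example, was counted at only 7.70 cpm in WCH and 18.6 cpm in TRAP. Proteasome subunits were higher for 29 of 48 and lower for 2, with Psme1 of the immunoproteasome activator the highest (log2 1.63). Translation factors were higher for 22 of 63 and lower for 12, led by Eef1e1 (1.31). Signal recognition and translocation genes were higher for 14 of 24, and splicing factors for 10 of 31. Kinesins and dyneins were lower for 24 of 44 and higher for 2, and genes named Zfp were higher for 42 of 327 and lower for 116. The counts of the Zfp genes became 61 and 78 with TMM factors, and those of ribosomal proteins 68 and 3.

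The transcription factors Sp, Atf and Creb were lower for 10 of 17 genes and higher for 3. Atf5 rose by a log2 of 1.70, Atf4, the main factor of the integrated stress response, by 0.81 and Atf6b by 0.54. Sp1 and Atf7 fell by 2.38 and 2.40, each without overlap between groups.

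Long genes were lower in TRAP more often than short ones. Among 5 bins of equal size by exonic length, in the bin with the shortest exons, up to 1.75 kb, 35.8% were called higher and 27.9% lower, with a median log2 change of 0.22. In the bin with the longest, from 6.11 kb on, 7.27% were called higher and 65.5% lower, with a median of -0.74. The medians of the RBP4-TRAP line were 0.07 and -0.74 in these bins. The respiratory chain list has a median exonic length of 1.33 kb, which lies in the shortest bin, and its median of 1.36 stands beside 0.22 for that bin. The mitochondrial ribosomal list (1.81 kb, median 0.87) lies in the bin with a median of -0.03. The Kv3 list lies in the fourth bin, with 5.34 kb and a median of 0.85 beside -0.43. The ionotropic glutamate receptor, excitatory scaffold and chloride transporter lists lie in the longest bin. Their medians of -0.47, -0.53 and -0.71 were not below the -0.74 of that bin. The GABA-A and metabotropic receptor lists lie in the fourth bin, where their medians of -0.86 and -0.82 stand below -0.43. The part of length in these decreases was not tested.

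**Figure D4:**
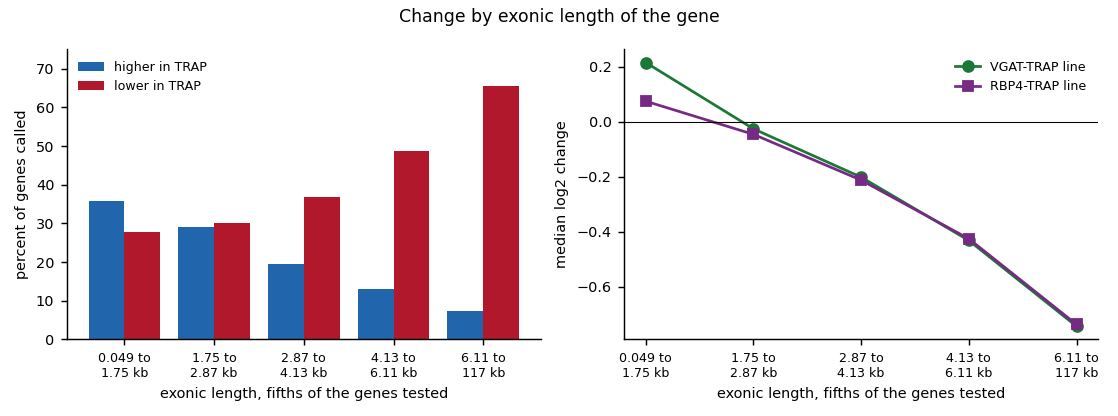
Left, percentage of genes called higher and lower in TRAP of the VGAT-TRAP line for 5 bins of exonic length in kb with equal numbers of genes. Right, median log2 change of TRAP against WCH in the same bins in both lines, which falls from 0.22 to -0.74 in the VGAT-TRAP line and from 0.07 to -0.74 in the RBP4-TRAP line.

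RNA that stays in the nucleus was low in TRAP. Of 12 nuclear long noncoding RNAs tested, 10 were lower and 2 (Pantr1 and Tsix) were not called, with a median of -2.90. Malat1, an RNA of nuclear speckles, measured 21706, 10982, 15870, 18391 and 19064 cpm in WCH and 344, 391, 3134, 2188 and 2972 cpm in TRAP. Pools 1 and 2 thus held the least in TRAP, and the summed list stood at 3.16%, 6.19%, 19.1%, 12.4% and 15.3% of WCH. Snhg11 fell from 3002 ± 1532 to 276 ± 159 cpm, Miat by a log2 of 3.41 and Neat1 by 2.82. Of 26 small nucleolar RNA genes tested, 21 were lower and 0 higher, of 37 sense intronic transcripts 30 were lower and 0 higher, and of 478 long intergenic noncoding RNAs 255 were lower and 63 higher. Protein-coding genes were higher for 3225 and lower for 6104 of 14675.

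To see which of these changes differed between cell types, the change in the VGAT-TRAP line was set against that in the RBP4-TRAP line in one fit over 20 libraries. Of 16988 genes tested, 1650 (9.71%) had a change in the VGAT-TRAP line above that in the RBP4-TRAP line and 1392 (8.19%) had one below it. The difference was positive for all 4 markers of the captured cells, with a log2 of 4.75 ± 0.34 for Slc32a1, 4.19 ± 0.49 for Gad1, 5.08 ± 0.26 for Dlx1 and 3.99 ± 0.19 for Sst. Slc32a1 measured 13.7 cpm in WCH and 2.88 cpm in TRAP of the RBP4-TRAP line. Sst there measured 180 cpm and 145 cpm, and Cort 4.63 cpm and 4.98 cpm, so that these 2 peptide genes were not depleted as Vip was, which measured 71.5 and 9.65 cpm.

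The difference between lines followed the cell type of the lists. It was positive for 27 of 30 interneuron markers, 29 of 32 striatal markers, 17 of 18 lineage factors tested and 7 of 7 cholinergic markers, against the 9.71% of all genes. It was negative for the 3 interneuron markers Id2, Lamp5 and Cck, with -0.89 ± 0.22, -0.88 ± 0.19 and -1.49 ± 0.35. Cck measured 245 cpm in WCH and 516 cpm in TRAP of the RBP4-TRAP line. Erbb4 and Abat, which did not pass the test within the VGAT-TRAP line, had positive differences of 3.43 ± 0.43 and 1.69 ± 0.40. Of 29 glutamatergic markers 21 had a negative difference and 2 a positive one, Slc17a8 being one with 2.16 ± 0.40.

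Among genes with at least 5 cpm in one group and no overlap of the changes per pool between lines, the largest positive differences were those of Vip (5.90 ± 0.35), Akr1c18, Crabp1, Cacng1, Cdk15, Tac2, Dlx5, Six3, Gpx6 and Pthlh (5.46 ± 0.34). The largest negative ones were those of Dkkl1 (-4.46 ± 0.50), Adcyap1, Vegfd, Tnnc1, Myl4, Fezf2, Tdo2, C1ql2, Tmem40 and Tgm3 (-3.76 ± 0.33). Fezf2, which specifies subcortical projection neurons of layer 5, measured 41.5 and 7.68 cpm in WCH and TRAP of the VGAT-TRAP line and 43.7 and 125 cpm in those of the RBP4-TRAP line. Adcyap1 measured 16.0 and 61.7 cpm in the latter.

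For 20 oligodendrocyte markers 0 differences were called, with medians of -2.73 in the VGAT-TRAP line and -2.82 in the RBP4-TRAP line, and for 20 astrocyte markers 1 difference was called in each direction. The RBP4-TRAP libraries varied widely here. Summed oligodendrocyte markers ran from 461 to 5873 cpm in TRAP and from 7552 to 11190 cpm in WCH of that line. Astrocyte markers ran from 580 to 3789 cpm and from 4742 to 9674 cpm. With this spread, a lack of calls does not show equal changes. For 16 microglial markers 3 positive differences were called, with medians of -1.70 and -2.98. Malat1 differed by -0.10 ± 0.73 and Sp1 by 0.05 ± 0.28. Of 75 respiratory chain genes 9 had a positive difference, a share near the 9.71% of all genes, and the medians of the list were 1.36 and 0.80. Cox6a2, which is not in that list, differed by 3.70 ± 0.21, having measured 14.8 and 11.1 cpm in the RBP4-TRAP line. Among synaptic and channel genes, Stx1a differed by -2.72 ± 0.28, with 303 and 612 cpm in WCH and TRAP of the RBP4-TRAP line. Vamp1 differed by 2.01 ± 0.19, Kcnc1 by 2.85 ± 0.17, Gabrd by 1.13 ± 0.19 and Grm2 by -3.18 ± 0.34, and Snap25 differed by -0.52 ± 0.19, which was not called, although it was with the replicate number as a block (-0.51, adjusted p = 0.0106) and with DESeq2 (-0.57, adjusted p = 0.0402).

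**Figure D5:**
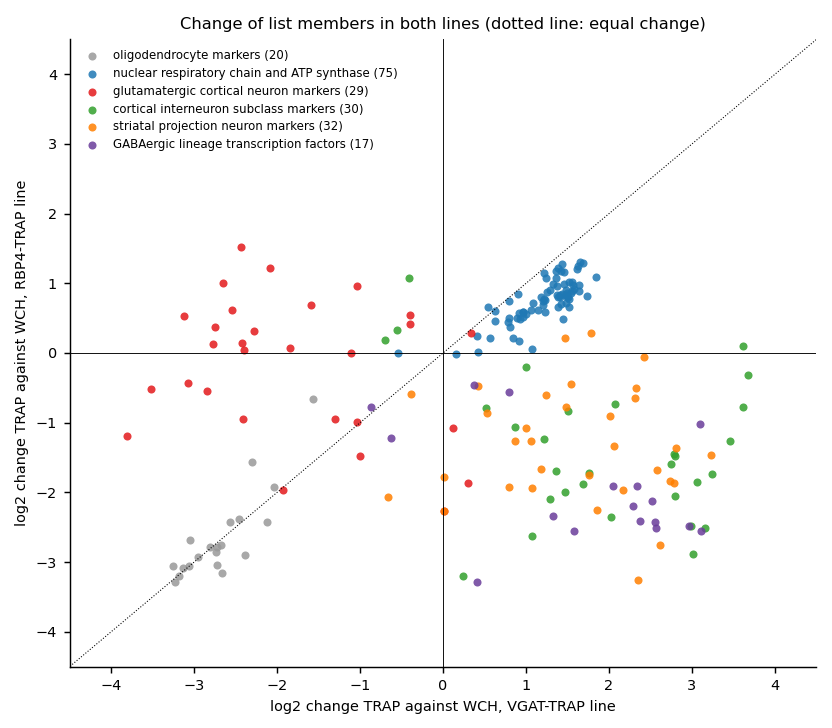
Log2 change of TRAP against WCH in the VGAT-TRAP line (horizontal) and in the RBP4-TRAP line (vertical) for members of 6 gene lists, with 1 point per gene and a dotted line of equal change. Oligodendrocyte markers lie at the lower end of the dotted line, glutamatergic markers mostly left of 0, and interneuron markers, striatal markers and lineage factors mostly at the lower right, with medians of 1.89, 1.65 and 2.29 on the horizontal axis.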

How the data were processed

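The members are the WCH and TRAP libraries of the VGAT-TRAP line, and they and the gene lists were chosen with earlier results of these data known. Per the submitters' processing notes, reads were aligned with STAR 2.0.4b and counted per gene with Subread featureCounts 1.4.5. The counts as deposited by the authors are whole numbers without normalization. The CPM values deposited by the authors (counts scaled to a common library total) and the RPKM values deposited by the authors (CPM per kb of exon) were used only to check the counts. The genome build is not given in the sources used here, and 87.8% of the genes share a start or an end with GENCODE M21 (GRCm38), from which RNA classes were taken.

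The total per library was 15707596 to 20629343 counts. Genes of the mitochondrial chromosome (37) and rRNA and tRNA genes (353) were left out, and the remaining totals were the library sizes, with no further factor. The fit held the 20 libraries of the line (WCH, TRAP and 2 synaptoneurosome fractions) and the genes that reached 0.5 cpm in 3 or more of them. It used edgeR 4.0.16 under R 4.3.3, with glmQLFit, glmQLFTest and a term for the group alone. P-values were adjusted over all genes by the Benjamini-Hochberg method, and calls were made up to 0.05. Standard errors (SE) are the log2 change over the square root of its F statistic. The difference between lines was an interaction in the 20 WCH and TRAP libraries of both lines. Gene lists were described by counts and medians, with no set test. Genes named outside the lists were the 15 largest changes in each direction among called genes with at least 5 cpm, no overlap between groups and the same direction in every pool, the 10 highest in TRAP, and the 10 largest differences between lines in each direction. Some genes of these sets and of the lists are not reported here. Levels between genes were compared per kb of exon, which is uncertain given the 3′ bias of the reads that the paper reports. The library kit is not stranded, and per the paper only unambiguous reads were counted. Reads over exons of overlapping genes on opposite strands would thus be counted for neither. Promoters are RefSeq windows of GRCm38.p6. The fits were tested on simulated data. Python 3.11.15, numpy 2.4.6, pandas 2.3.3 and matplotlib 3.10.9 were used for tables and figures.

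Per the labels, each replicate is 1 pool that gave both TRAP and WCH, so that equal numbers pair them. The deviations of same-numbered libraries from their group means correlated at 0.304, 0.242, 0.378, 0.238 and 0.378, against a mean of -0.08 for libraries of different numbers. As alternatives, the scaling was changed to TMM or to size factors of DESeq2 1.42.0, and the test to DESeq2 or the likelihood ratio test. The filter was dropped or raised to 1 cpm in 5 libraries, fewer genes were excluded, 10 or 40 libraries were fitted, the replicate number was added as a block, single pools were omitted, and a 1.5-fold limit was set.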

Additional observations from a re-analysis of the deposited data

Results flagged for a closer look

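In groups of 5 libraries, a value was set aside for a closer look when its gap to the nearest library exceeded 0.71 of the range of the group, which chance brings about in about 1 of 20 groups. Of 98 groups, 8 were. Sst reached 3648 cpm in 1 TRAP library, that of pool 4. The mural, fibroblast and choroid plexus markers summed to 725 cpm, of which Ttr gave 597 cpm, and the ependymal markers to 6.696 cpm in TRAP of pool 3, and the sodium channel subunits to 2951 cpm in TRAP of pool 5. In WCH of pool 1 the pallidal, septal and thalamic reticular markers summed to 405.9 cpm and the cytoplasmic ribosomal proteins to 6203 cpm. The remaining pair were shares of counts in 1 WCH library, 2.01% for long intergenic noncoding RNAs and 97.05% for protein-coding genes.

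The interaction test called 1650 changes above and 1392 below those of the RBP4-TRAP line. They included those of the 4 marker genes, Dlx1 by 5.084, Slc32a1 by 4.748, Gad1 by 4.187 and Sst by 3.993 on the log2 scale. The 10 largest positive differences, under the limits given above, were 5.903 for Vip, 5.811 for Akr1c18, 5.758 for Crabp1, 5.738 for Cacng1, 5.699 for Cdk15, 5.680 for Tac2, 5.679 for Dlx5, 5.613 for Six3, 5.573 for Gpx6 and 5.464 for Pthlh. The 10 largest negative ones were -4.459 for Dkkl1, -4.409 for Adcyap1, -4.133 for Vegfd, -4.090 for Tnnc1, -3.963 for Myl4, -3.960 for Fezf2, -3.929 for Tdo2, -3.818 for C1ql2, -3.793 for Tmem40 and -3.758 for Tgm3. Tnnc1, a troponin, measured 37.0 cpm in WCH and 10.4 cpm in TRAP of the VGAT-TRAP line, with 27.0 cpm in TRAP of pool 3, against 35.4 and 168 cpm in the RBP4-TRAP line.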

How the results depend on the processing

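The scaling of the libraries decided the balance of calls. With TMM factors 4987 genes were higher and 5530 lower in TRAP, with DESeq2 4972 and 5796, and with library sizes alone 3561 and 7106. Over all alternatives the calls stayed within 1.5 times of these, from 2610 to 4987 higher and from 5530 to 7646 lower, and with 1 pool left out they were 3030 to 3465 and 6108 to 7039. Between lines, 1232 to 2139 genes were above and 994 to 1803 below. With the replicate number as a block (replicate block), which the shared pools justify, 3809 genes were higher and 7510 lower, the thalamic and hypothalamic list had 5 members lower in place of 3, with a median of 0.14 in place of -0.02, and 1 immediate early gene was higher in place of 0. In the 20 libraries of the line the block changed the calls of Gal, Gphn and Fos, as stated above, and no other call of a named gene, and between lines it added a call for Snap25. With the block in the 10 libraries alone, Fos and Gphn were again called, as were Abat, Aldh5a1, Cox7a1, Erbb4, Esam, Rpl10a (-0.68), Selenow (0.47), Syn1, Syt1 and Trpc4, and Shank3 was not.

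Of 82 list counts, 72 stayed within 1.5 times with TMM factors. The others were the members called lower among interneuron markers (1), striatal markers (0), peptide processing (3), chloride transporters (3), excitatory scaffolds (6), translation factors (6) and splicing factors (2), and those called higher among metabotropic receptors (3), splicing factors (16) and kinesins and dyneins (5). Medians turned positive with TMM factors for thalamic and hypothalamic genes (0.23), sodium channels (0.0265) and vesicle fusion (0.16), as did Actb (0.0234), Snap25 (0.16, and 0.14 with DESeq2 or its size factors) and Tacr3 (0.0291, with DESeq2 0.00811 and with its size factors 0.00863). With TMM factors Abat, Aldh5a1, Cox7a1, Erbb4, Gal, Gphn, Gria1, Ngfr, Sdha, Selenow, Trpc4 and Zic1 were newly called higher. Cck, Chn1, Dpysl2, Eya1, Foxp1, Lamp5, Slc12a5, Slc30a3 and Slc4a4 were no longer called lower. The cause of these changes was not tested beyond the shift of the centre that TMM makes.

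With 1 pool left out, calls lower ran from 1 to 3 for interneuron markers, 3 to 6 for chloride transporters, 7 to 12 for excitatory scaffolds, 6 to 10 for translation factors and 2 to 4 for splicing factors. Calls higher ran from 0 to 1 for glutamatergic markers, 0 to 2 for metabotropic receptors, 1 to 2 for excitatory scaffolds, 3 to 6 for inhibitory synapses and 1 to 2 for kinesins and dyneins. The median of thalamic and hypothalamic genes ran from -0.728 without replicate 5 to 0.0800 without replicate 1, and that of peptide processing from -0.0732 without replicate 4 to 0.0338 without replicate 2. The difference between lines ran from -0.422 without VGAT replicate 3 to 0.554 without RBP4 replicate 5 for Malat1, and from -0.105 without RBP4 replicate 1 to 0.270 without RBP4 replicate 5 for Sp1. Of 3692 values of 218 named genes under alternatives, 3532 kept their call and direction. Genes at a few counts, such as Gbx1, are limited by depth.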
